A study of Mus musculus with 10 samples.

Results

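The interleukin-6 (IL-6) family genes were read in 10 RNA-seq libraries of mesenchymal cells from mouse Peyer's patches, the lymphoid follicles of the small intestinal wall. The set holds 10 of the 47643 genes listed for each library, chosen by name. They are 4 ligand genes (Il6, Lif, Il11 and Clcf1), 5 receptor chain genes (Il6st, Il6ra, Lifr, Osmr and Il11ra1) and the feedback gene Socs3. Cells of C57BL/6 wild-type mice were sorted as podoplanin-positive and negative for CD45 (leukocytes), EpCAM1 (epithelium), TER119 (red cells) and CD31 (endothelium). MAdCAM1, an adhesion molecule for lymphocyte integrins, then divided them into the negative MCi gate (n = 5 libraries) and the positive MRC gate (n = 5 libraries). The labels state neither age nor sex nor treatment, nor which libraries came from separate animals, so a p-value covers no more than the spread among these libraries, which may be technical.

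Cytokines of this family signal through receptor complexes that contain gp130, the protein of Il6st. IL-6 and IL-11 bind first to their own alpha chains, encoded by Il6ra and Il11ra1, whereas LIF and oncostatin M engage LIFR or OSMR beside gp130. The complexes activate JAK kinases and the transcription factor STAT3, and STAT3 induces Socs3, whose product binds gp130 and JAK and ends the signal. In lymphoid and gut stroma, fibroblasts are known as a source of IL-6 and LIF and as responders to oncostatin M and IL-11.

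The promoters of Il6 and Lif are shown because these were the only ligand genes with enough reads to be fitted, and they behaved differently among the libraries. Each line gives the 250 bases before the RefSeq start of the gene on GRCm38.p6, from 5′ to 3′. Il6 lies at chr5:30012864-30013113 and Lif at chr11:4257318-4257567, both on the plus strand, and the last 11 bases of the Lif window lie inside the gene as the deposited tables place it. Capitals mark matches to TGANTCA, the AP-1 motif, and GGANTTTCC, an NF-kB motif, searched on both strands together with the STAT motif TTCNNNGAA.
Il6: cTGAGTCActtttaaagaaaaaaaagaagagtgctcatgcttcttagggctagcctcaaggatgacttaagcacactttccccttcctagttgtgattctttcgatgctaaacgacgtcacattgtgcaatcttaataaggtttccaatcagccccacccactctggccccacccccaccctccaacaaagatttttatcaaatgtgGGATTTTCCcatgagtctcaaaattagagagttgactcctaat
Lif: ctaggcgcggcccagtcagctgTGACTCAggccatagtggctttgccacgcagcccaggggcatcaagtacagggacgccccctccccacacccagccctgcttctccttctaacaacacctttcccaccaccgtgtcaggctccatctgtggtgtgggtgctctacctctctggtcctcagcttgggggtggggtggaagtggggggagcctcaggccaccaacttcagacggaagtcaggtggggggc
The AP-1 letters stood in 6.75% of 32851 RefSeq windows of this length. Of the family genes with a window, 3 had them, Il11 besides both genes shown here. The NF-kB letters stood in the Il6 window and in 1.07% of all windows. Neither window held the STAT letters, which were present in the window of 1 family gene, Socs3 (TTCTTAGAA, 154 to 146 bases before its RefSeq start), and in 7.02% of all windows. Windows were found for 9 of the 10 genes, Clcf1 having none, and these matches describe letters, not bound sites. The motifs do not overlap each other in either window.

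Libraries held 3941032 to 8738115 exon reads, and 3 reads, the limit that a count of 0 allows, corresponded to 0.309 to 0.772 CPM (counts scaled to a library total). Madcam1, the gate's own gene, had a mean of 1.33 CPM in MCi and of 49.1 CPM in MRC. The libraries MRC4 and MRC5 stood apart: 12 epithelial markers summed to 14207 and 18930 CPM there and to 7.85 to 2126 CPM in the other 8 libraries. In the same MRC4 and MRC5, 8 fibroblast markers summed to 26452 and 26377 CPM, against 44544 to 134133 CPM elsewhere. MCi4 and MCi5 stood apart by 5 mesothelial markers, which summed to 593 and 569 CPM there and to 0.95 to 104 CPM elsewhere. The summed markers of B cells (5 genes) reached at most 13.0 CPM in a library, those of T cells (5 genes) 21.3 CPM and those of myeloid cells (5 genes) 38.6 CPM. Replicates 4 and 5 of both gates were also deeper (6142562 to 8738115 exon reads) than replicates 1 to 3 (3941032 to 4761017). Values are therefore given also without MRC4 and MRC5 and within each of these library sets. In sorted bulk RNA, fewer cells of a type and less RNA per cell cannot be told apart.

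Across the gates, 0 of the 8 fitted IL-6 family genes passed the threshold of 0.05 (edgeR quasi-likelihood test, adjusted over all 12127 genes fitted). Among all genes fitted, 53 passed, or 0.437%. Without MRC4 and MRC5, and in replicates 1 to 3 alone, 0 family genes passed, beside 1.03% and 0.801% of all genes. At an unadjusted p under 0.05 over all libraries there were 2 family genes, Il6ra and Il11ra1, both lower in MRC, against 16.7% of all genes in either direction and 6.09% lower in MRC. All 5 receptor chain genes and Socs3 had a fitted log2 fold change, MRC minus MCi, below 0, whereas Il6 and Lif had one above 0. The median of the 8 was −0.34, beside 0.01 over all genes fitted, of which 49% lay below 0. For none of the 10 genes were the 5 libraries of one gate all above those of the other, an arrangement that held for 3.79% of all genes fitted.

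**Figure D1:**
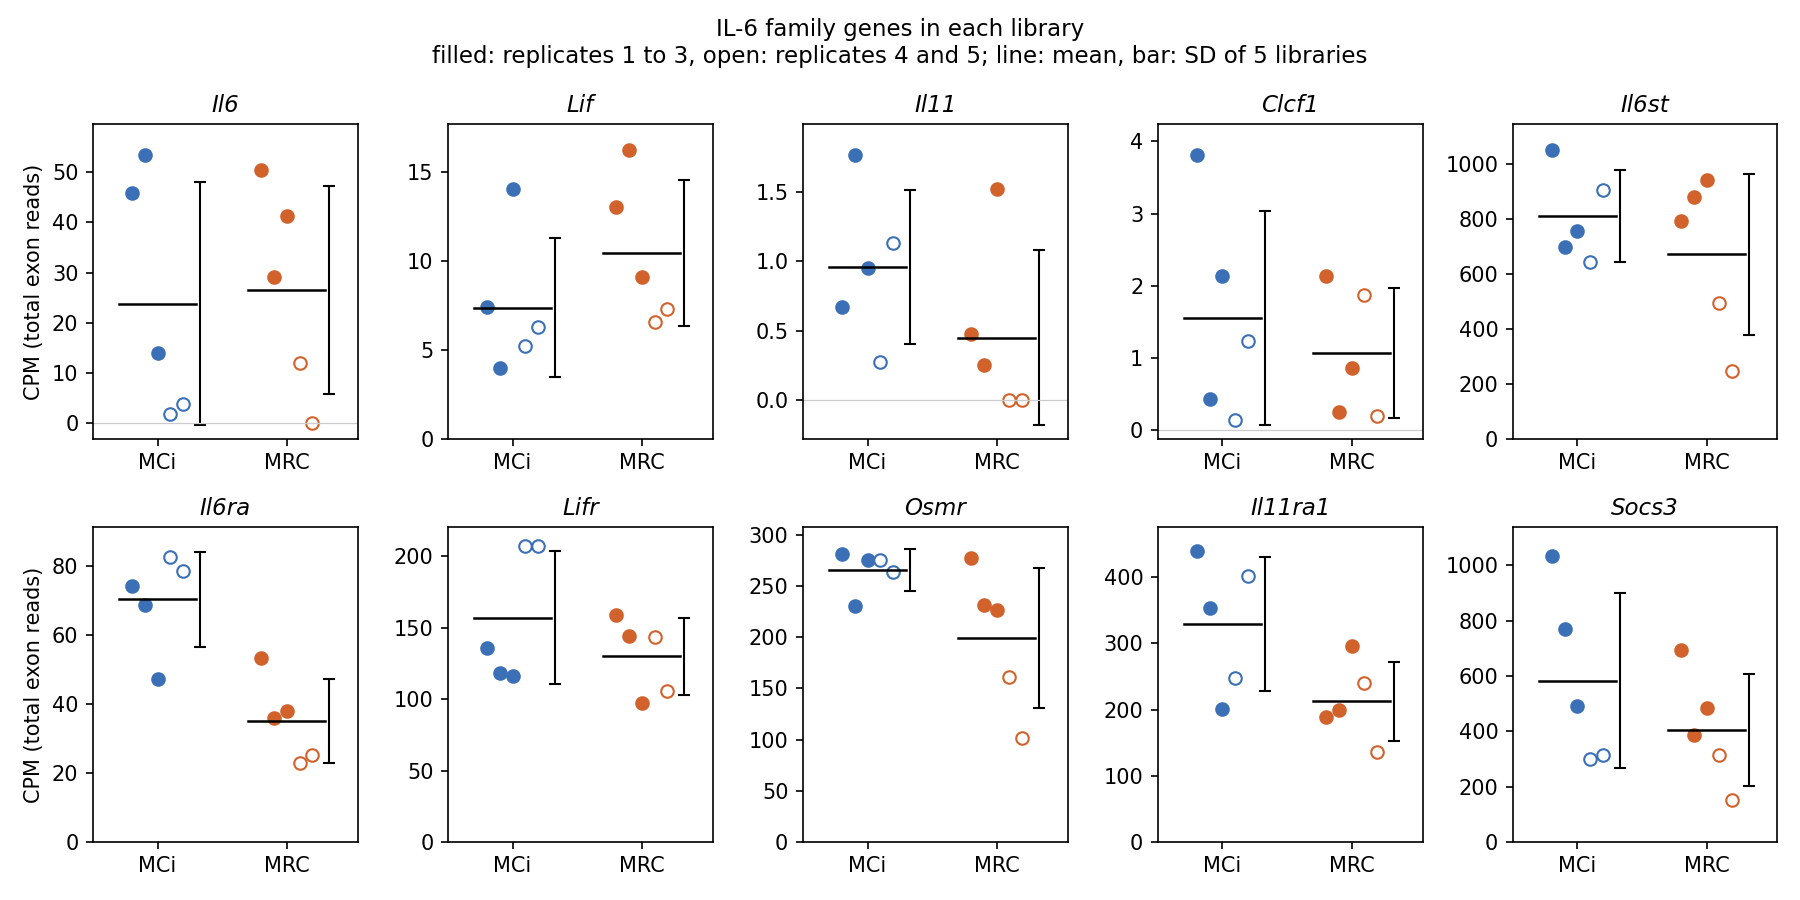
CPM of total exon reads (vertical axes, linear, a scale for each gene) of the 10 IL-6 family genes in the MCi (blue) and MRC (orange) libraries, with filled points for replicates 1 to 3, open points for replicates 4 and 5, a line at the mean and a bar for the SD (n = 5). Il6 and Socs3 were higher in every filled point than in any open point, and Il6ra was lower in MRC except that MRC1, at 53.2 CPM, lay above MCi3, at 47.3 CPM.

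Among the ligands, Il6 varied widely between libraries, while its mean levels in the gates were close. Il6 (ENSMUSG00000025746, chromosome 5, 30013114 to 30019981, plus strand, GRCm38) encodes interleukin-6, a cytokine of B cell help and acute inflammation. It stood at 45.9, 53.3, 14.0, 1.79 and 3.92 CPM in libraries MCi1 to MCi5, with 50.3, 29.1, 41.3, 12.05 and 0 CPM in libraries MRC1 to MRC5. Replicates 1 to 3 of both gates, at 14.0 to 53.3 CPM, all lay above replicates 4 and 5, at 0 to 12.05 CPM, while the gates overlapped almost completely. Means were 23.8 ± 24.2 CPM in MCi and 26.5 ± 20.6 CPM in MRC (SD, n = 5), a log2 fold change of 0.16 ± 1.13 (SE; edgeR adjusted p = 0.963; 95% interval −2.36 to 2.69). Within replicates 1 to 3 it was 0.09 ± 0.47 and within replicates 4 and 5 it was 1.04 ± 1.64 (edgeR adjusted p = 0.970 and 0.681). With library set as covariate it was 0.44 ± 0.74 (edgeR adjusted p = 0.790). A difference between the gates was therefore not detectable for Il6. The 95% interval, from the fit without that covariate, leaves room for a several-fold difference in either direction.

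Reads in Il6 introns were frequent. Of 1646 reads in the Il6 gene over the 10 libraries, 497 (30.2%) lay in introns, a higher share than in 94.0% of the genes fitted, whose median was 4.46%. The share was 34.2% in MCi and 26.0% in MRC. MRC5, with 0 Il6 exon reads, held 7 intron reads. With exon and intron reads counted together, the log2 fold change of Il6 was 0.03 ± 0.98 (edgeR adjusted p = 0.994).

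Lif (ENSMUSG00000034394, chromosome 11, 4257557 to 4272514, plus strand) encodes leukaemia inhibitory factor. It stood at 7.39, 3.97, 14.0, 5.23 and 6.29 CPM in libraries MCi1 to MCi5, with 13.1, 16.2, 9.12, 6.57 and 7.31 CPM in libraries MRC1 to MRC5. MRC1 and MRC2 were among the 3 highest libraries together with MCi3, and the gates overlapped. Means were 7.38 ± 3.93 and 10.5 ± 4.09 CPM (SD, n = 5), and the log2 fold change was 0.50 ± 0.40 (edgeR adjusted p = 0.574; 95% interval −0.37 to 1.37). Without MRC4 and MRC5 it was 0.80 ± 0.41 (edgeR adjusted p = 0.495). Single libraries moved it as much, to 0.86 without MCi3 and to 0.29 without MRC2 (edgeR adjusted p = 0.373 and 0.756).

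Il11 and Clcf1 had too few reads for the fit. Il11 (ENSMUSG00000004371, chromosome 7, 4772373 to 4782857, minus strand), which encodes interleukin-11, a cytokine linked to fibroblast activation, had 28 exon reads in all MCi libraries together and 10 in all MRC libraries. It stood at 0.672, 1.76, 0.951, 0.275 and 1.13 CPM in libraries MCi1 to MCi5, with 0.475, 0.257, 1.52, 0 and 0 CPM in libraries MRC1 to MRC5. Most of these levels lie near the value of 3 reads. Its difference in mean log2(CPM + 1) was −0.55 (two-sided exact permutation test over libraries, p = 0.119, the smallest possible p being 0.00794). Clcf1 (ENSMUSG00000040663, chromosome 19, 4214238 to 4223490, plus strand), which encodes cardiotrophin-like cytokine factor 1, a ligand of the ciliary neurotrophic factor receptor, had 41 and 27 reads. Its levels were 0.138 to 3.81 CPM in MCi and 0.197 to 2.14 CPM in MRC (difference −0.32, two-sided exact permutation p = 0.532). In the GENCODE M21 annotation, 311 bases of Clcf1 exons are shared with AC109138.7.

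Among the receptors, Il6ra had the largest fitted difference between the gates, lower in MRC, but it did not pass the test. Il6ra (ENSMUSG00000027947, chromosome 3, 89864059 to 89913196, minus strand) encodes the alpha chain that binds IL-6. It stood at 74.1, 68.7, 47.3, 82.5 and 78.6 CPM in libraries MCi1 to MCi5, with 53.2, 36.0, 38.0, 22.8 and 25.1 CPM in libraries MRC1 to MRC5. Of the MCi libraries, 4 lay above every MRC library, and MCi3 lay below MRC1 alone. Means were 70.3 ± 13.8 CPM in MCi and 35.0 ± 12.1 CPM in MRC (SD, n = 5), 2.01-fold higher in MCi, with a log2 fold change of −1.01 ± 0.25 (95% interval −1.56 to −0.45). It ranked 205 of 12127 genes by p but did not pass (edgeR adjusted p = 0.125). DESeq2 on the same counts called it (log2 fold change −0.99 ± 0.27, adjusted p = 0.00770), as it called 6.96% of all genes. So did limma on log2(RPKM + 1) (−1.07, adjusted p = 0.0481), which called 2.16% of all genes. An antisense gene, Gm42809, shares 242 exon bases with Il6ra and had 0 reads.

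Within the library sets the Il6ra difference had the same direction and unequal size. In replicates 1 to 3 the means were 63.4 ± 14.2 and 42.4 ± 9.38 CPM (SD, n = 3), a log2 fold change of −0.58 ± 0.24 that did not pass (edgeR adjusted p = 0.466). In replicates 4 and 5 they were 80.6 ± 2.71 and 24.0 ± 1.58 CPM (SD, n = 2), a log2 fold change of −1.82 ± 0.20 that passed (edgeR adjusted p = 0.00216). In that comparison of 2 against 2 libraries 26.2% of all genes passed, and its MRC libraries are those with epithelial markers at 14207 and 18930 CPM. Its MCi libraries are those with mesothelial markers at 593 and 569 CPM. MCi4 and MCi5 were also the most alike of all MCi pairs, with a chi-square per degree of freedom of 7.77 between their exon counts. Other MCi pairs stood at 21.6 to 41.2. The labels do not say whether MCi4 and MCi5 came from separate animals. The difference between the Il6ra effects in the library sets was −1.17 ± 0.35 and did not pass (edgeR interaction term, adjusted p = 0.0569), while 10.4% of all genes did. Without MRC4 and MRC5 the Il6ra log2 fold change was −0.73 ± 0.21 (edgeR adjusted p = 0.163). With library set as covariate it was −1.04 ± 0.25 and did not pass (edgeR adjusted p = 0.0672), while 206 of 12127 genes did. The part of the epithelial transcripts in the lower MRC values was not tested, nor that of the mesothelial transcripts in the MCi values.

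In the same libraries, the summed level of 5 glial markers was 107 to 355 CPM in the MCi libraries and 4.75 to 78.3 CPM in the MRC libraries, with 1 to 3 of them at 0 in each library. Of the 4 glial genes fitted, 0 passed and 3 had an unadjusted p under 0.05 (edgeR), beside 16.7% of all genes fitted. The summed level of 5 mesothelial markers was 10.9 to 104 CPM in MCi1 to MCi3 and 593 and 569 CPM in MCi4 and MCi5. In MRC it was 0.95 to 54.9 CPM, a range that overlaps that of MCi. Of 4 fitted, 1 passed, Msln, higher in MCi, beside 0.437% of all genes fitted. The overlap came from MRC4 and MRC5, where most of the sum was Krt7, at 50.2 CPM in MRC4. Msln stood at 3.33 to 40.8 CPM in MCi1 to MCi3, at 231 and 217 CPM in MCi4 and MCi5, and at 0 to 0.469 CPM in MRC, without overlap. Upk3b, at 4.995 to 234 CPM in MCi and 0 to 1.18 CPM in MRC, did not overlap either, whereas Lrrn4, Krt7 and Wt1 did. Of all genes fitted, 3.79% had gates without overlap. Myeloid cells are a known site of Il6ra expression, and 5 myeloid markers summed to 19.3 to 38.6 CPM in MCi and 0.469 to 20.1 CPM in MRC, also overlapping, with 0 of 2 fitted passing (edgeR). Most of that was Lyz2, the lysozyme gene, at 16.1 to 36.8 CPM in MCi and up to 16.8 CPM in MRC, whereas Csf1r reached at most 4.89 CPM in any library. The part of these cell types in the Il6ra levels was not tested.

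Il6st (ENSMUSG00000021756, chromosome 13, 112464070 to 112510086, plus strand), which encodes the shared signal chain gp130, did not differ detectably between the gates. It stood at 1051, 696, 756, 642 and 905 CPM in libraries MCi1 to MCi5, with 792, 880, 943, 493 and 247 CPM in libraries MRC1 to MRC5. The lowest levels were those of MRC4 and MRC5, and MRC 1 to 3 lay inside the MCi range. Means were 810 ± 167 and 671 ± 293 CPM (SD, n = 5). The log2 fold change was −0.27 ± 0.34 over all libraries (edgeR adjusted p = 0.745; 95% interval −1.01 to 0.47). Its sign turned to 0.11 ± 0.19 without MRC4 and MRC5 (edgeR adjusted p = 0.875).

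Osmr and Lifr encode the chains that pair with gp130 for oncostatin M and LIF. Osmr (ENSMUSG00000022146, chromosome 15, 6813577 to 6874969, minus strand) stood at 282, 230, 275, 275 and 264 CPM in libraries MCi1 to MCi5, with 277, 231, 226, 161 and 102 CPM in libraries MRC1 to MRC5. The MCi libraries were close together, and MRC4 and MRC5 were again the lowest. The means were 265 ± 20.6 and 199 ± 68.6 CPM (SD, n = 5). Its log2 fold change was −0.41 ± 0.25 (edgeR adjusted p = 0.437; 95% interval −0.95 to 0.13) and −0.11 ± 0.14 without MRC4 and MRC5 (edgeR adjusted p = 0.804).

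Lifr (ENSMUSG00000054263, chromosome 15, 7129559 to 7197489, plus strand) stood at 136, 118, 116, 207 and 207 CPM in libraries MCi1 to MCi5, with 159, 144, 97.3, 144 and 106 CPM in libraries MRC1 to MRC5. MCi4 and MCi5 were the highest and the other 8 libraries overlapped. Lifr means were 157 ± 46.7 and 130 ± 26.7 CPM (SD, n = 5). The log2 fold change was −0.27 ± 0.23 over all libraries (edgeR adjusted p = 0.605; 95% interval −0.78 to 0.23), 0.11 ± 0.21 in replicates 1 to 3 (edgeR adjusted p = 0.929) and −0.80 ± 0.22 in replicates 4 and 5 (edgeR adjusted p = 0.0447). Osmr likewise passed within replicates 4 and 5 (−1.10 ± 0.27, edgeR adjusted p = 0.0327). In that comparison 26.2% of all genes passed. Its MRC libraries had the highest summed epithelial markers and its MCi libraries the highest summed mesothelial markers. The effects in the library sets differed by −0.85 ± 0.32 for Lifr, −0.94 ± 0.31 for Osmr and −1.13 ± 0.42 for Il6st, and none of these differences passed (edgeR interaction term, adjusted p = 0.118, 0.0777 and 0.113).

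**Figure D2:**
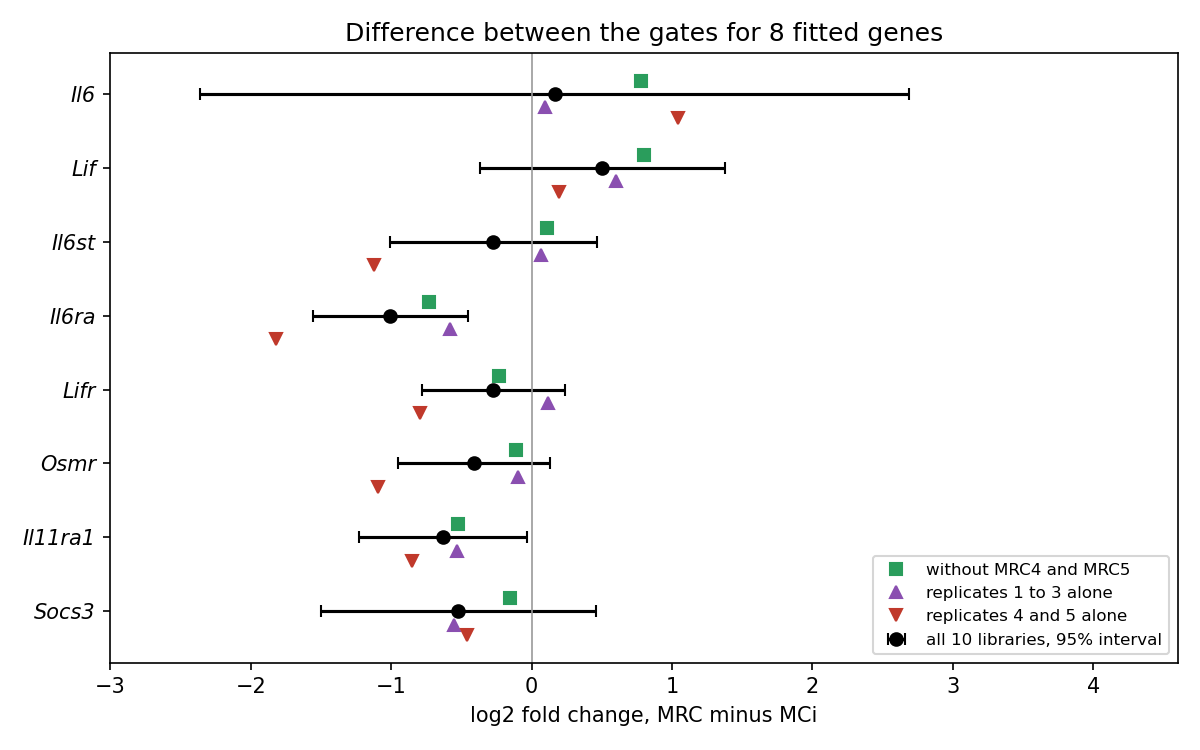
Log2 fold change, MRC minus MCi, for the 8 fitted genes (horizontal axis), as black points with 95% intervals over all 10 libraries and as colored symbols without MRC4 and MRC5, in replicates 1 to 3 and in replicates 4 and 5. Il6ra lies below 0 in each of these fits, at −1.01, −0.73, −0.58 and −1.82, while the interval of Il6 runs from −2.36 to 2.69.

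Il11ra1 (ENSMUSG00000073889, chromosome 4, 41699989 to 41769474, plus strand) encodes the alpha chain that binds IL-11, and its counts are uncertain. Of its 15281 exon reads only 8047 (52.7%) were listed as unique, against 87.7% to 99.9% for the other 9 family genes. A copy, Il11ra2, matches Il11ra1 transcripts over 1299 bases at 99.0% identity, and Gm13305 over 2578 bases at 98.6%. Il11ra2 was listed with 44 exon reads in all, none of them unique, and Gm13305 with 17. Il11ra1 stood at 440, 353, 201, 248 and 402 CPM in libraries MCi1 to MCi5, with 189, 200, 296, 240 and 136 CPM in libraries MRC1 to MRC5. MRC3 and MRC4 reached into the MCi range, and the lowest 3 libraries were all MRC. Means were 329 ± 101 and 212 ± 59.8 CPM (SD, n = 5), a log2 fold change of −0.63 ± 0.27 that did not pass (edgeR adjusted p = 0.273; 95% interval −1.23 to −0.04). Unique reads alone gave −0.55 ± 0.18 (edgeR adjusted p = 0.198), and the reads of Il11ra1, Il11ra2 and Gm13305 together −0.63 ± 0.27 (edgeR adjusted p = 0.278).

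**Figure D3:**
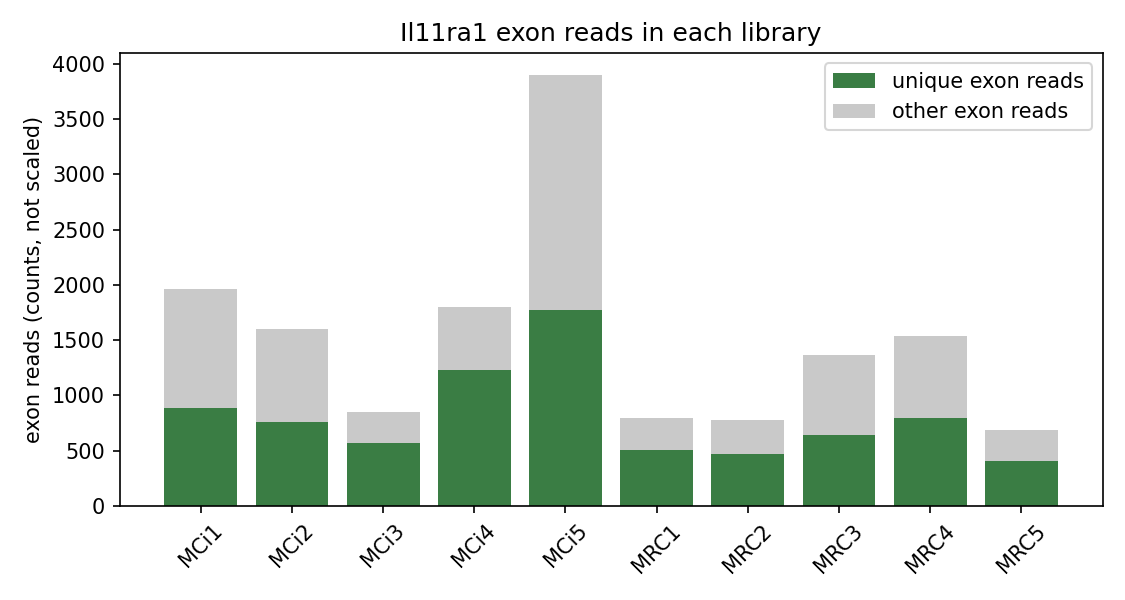
Exon reads of Il11ra1 in each library (vertical axis, counts not scaled for depth), divided into reads listed as unique (green) and the rest (grey). The unique share runs from 45.3% in MCi1 to 68.2% in MCi4.

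Socs3 (ENSMUSG00000053113, chromosome 11, 117966079 to 117970047, minus strand) encodes the suppressor of cytokine signalling that blocks gp130 complexes. It stood at 1035, 771, 491, 300 and 314 CPM in libraries MCi1 to MCi5, with 693, 386, 485, 313 and 150 CPM in libraries MRC1 to MRC5. As for Il6, replicates 1 to 3 of both gates (386 to 1035 CPM) all lay above replicates 4 and 5 (150 to 314 CPM), and the highest library exceeded the lowest 6.88-fold. Socs3 means were 582 ± 317 and 406 ± 202 CPM (SD, n = 5). Its log2 fold change between the gates was −0.52 ± 0.45 (edgeR adjusted p = 0.611, 95% interval −1.50 to 0.46). Without MRC4 and MRC5 it was −0.16 ± 0.43 (edgeR adjusted p = 0.926), but that fit keeps the low MCi4 and MCi5. Within replicates 1 to 3 it was −0.55 ± 0.30 and within replicates 4 and 5 −0.46 ± 0.36 (edgeR adjusted p = 0.675 and 0.397). With library set as covariate it was −0.49 ± 0.27 (edgeR adjusted p = 0.350).

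The division by library set seen for Il6 and Socs3 was also seen in 11 of 20 genes known to be induced when tissue is dissociated, Fos and Egr1 among them. Of all genes fitted, 4.7% had replicates 1 to 3 of both gates above replicates 4 and 5, and 3.26% had them all below. Jund, another of the 20, had them all below. The same division was seen in 4 of 7 fitted fibroblast markers (Col1a1, Col1a2, Dcn and Lum). The summed level of the 20 dissociation response genes was 20173, 21328, 13976, 8318 and 8164 CPM in libraries MCi1 to MCi5, with 19865, 14165, 14334, 11220 and 8801 CPM in libraries MRC1 to MRC5. Between the gates 0 of these 20 genes passed or had an unadjusted p under 0.05 (edgeR), which 16.7% of all genes fitted had. Btg2, Hspa1b and Hspa1a were at the smallest p, and the list median was −0.05. None of the receptor chain genes showed this division. The part of either list in the levels of Il6 and Socs3 was not tested.

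**Figure D4:**
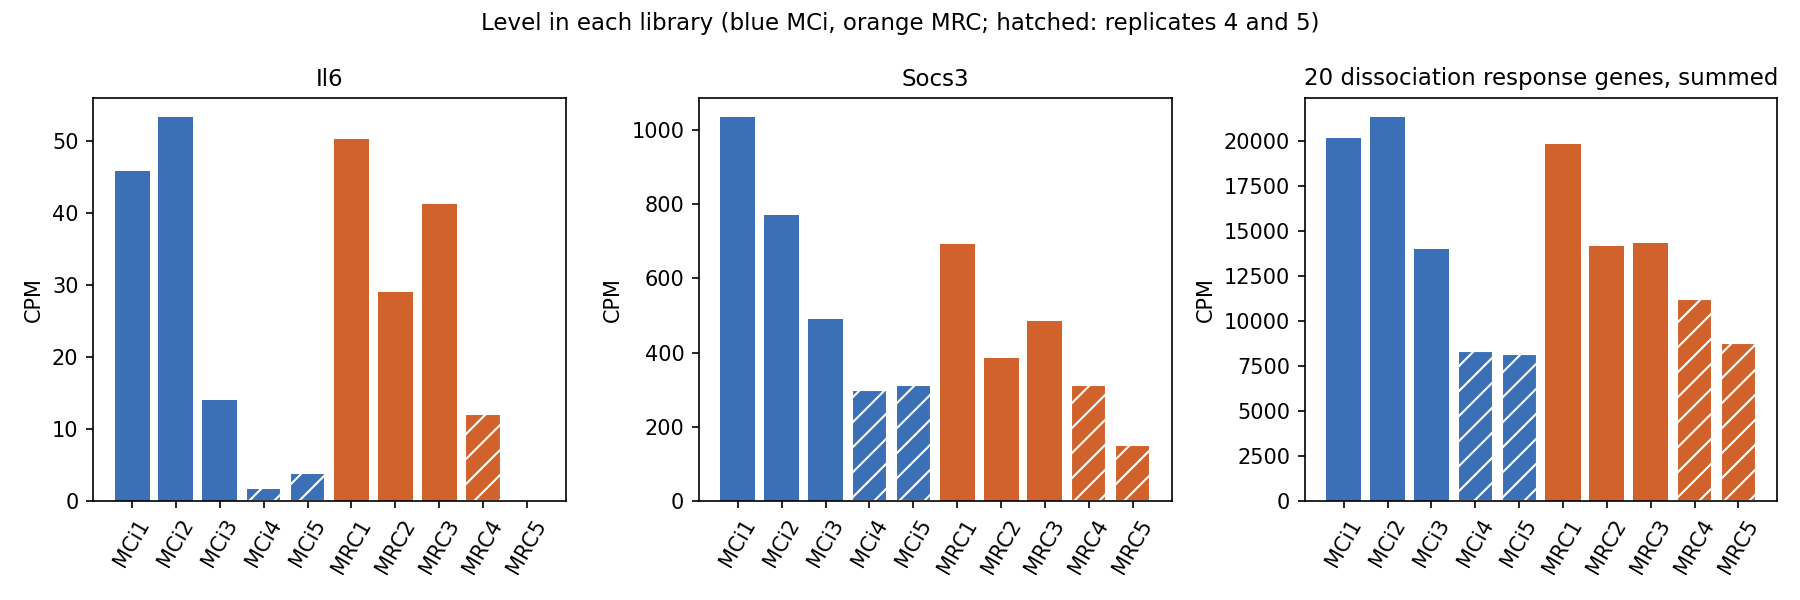
CPM of Il6, of Socs3 and of 20 dissociation response genes summed (vertical axes, from 0) in each library, with MCi in blue, MRC in orange and replicates 4 and 5 hatched. The summed level is 13976 to 21328 CPM in replicates 1 to 3 and 8164 to 11220 CPM in replicates 4 and 5, and Il6 is at 0 in MRC5.

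The genes with the most similar profile were found by the root mean square difference of log2 CPM over the 10 libraries, after each gene was centred on its mean. For Il6, whose own root mean square deviation was 2.27, they were Has1, a hyaluronan synthase gene (0.55), and Mmp3, a matrix metalloproteinase gene (0.97). Has1 stood at 140.6, 89.2, 30.2, 6.75 and 5.15 CPM in libraries MCi1 to MCi5, with 74.6, 58.7, 44.5, 13.5 and 0.592 CPM in libraries MRC1 to MRC5. For Socs3, with a deviation of 0.76, they were the immediate early gene Egr1 (0.30) and Tnfaip6, an inflammation-induced hyaluronan-binding protein gene (0.31). For Il6ra they were Gm26809 (0.14) and Nim1k (0.20), and for Osmr Ldb1 (0.06) and Trim35 (0.11). Eif4g3 and Camsap2 were nearest to Il6st, Kctd7 and Nrp1 to Lifr, Phf8 and Msantd4 to Il11ra1, and Foxn2 and Shisa2 to Lif, at 0.16 to 0.24. These profiles are a description of libraries that share the sets named above.

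Compared per length, the family spanned a wide range of levels. By the deposited RPKM, which scales reads by exon length and library total, the medians over 10 libraries were 137 for Socs3, 67.0 for Il6st, 51.6 for Il11ra1, 20.03 for Osmr, 11.96 for Lifr, 8.24 for Il6, 5.57 for Il6ra, 1.63 for Lif, 0.283 for Clcf1 and 0.278 for Il11. Socs3 exceeded Il6st in 10 of 10 libraries, and Il11ra1 exceeded Osmr in 10 of 10. Il6st and Il11ra1 could not be ordered by these values, each being higher in 5 libraries, nor could Clcf1 and Il11. Only 52.7% of the Il11ra1 exon reads were unique, so the place of Il11ra1 in this order is uncertain. Osmr exceeded Lifr in 8 libraries, Lifr exceeded Il6 in 6, and Il6 exceeded Il6ra in 7. Il6ra was above Lif, and Lif above Clcf1, in all 10. Across libraries, the ranges of neighbouring genes in this order overlapped in each case.

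Of 12 further ligand and receptor genes 4 were fitted and 0 passed (edgeR). Cntfr, the ciliary neurotrophic factor receptor that Clcf1 engages, had means of 24.9 ± 10.7 CPM in MCi and of 26.2 ± 9.77 CPM in MRC (SD, n = 5; edgeR adjusted p = 0.952). Cntf itself averaged 4.69 ± 3.96 and 1.13 ± 1.44 CPM (edgeR adjusted p = 0.405), although only 9 of its 140 exon reads were unique. Ctf1, a cardiotrophin gene, averaged 3.33 ± 1.03 and 2.03 ± 0.666 CPM, and Il27ra, the interleukin-27 receptor gene, 3.96 ± 1.61 and 5.47 ± 5.71 CPM (edgeR adjusted p = 0.426 and 0.817). Osm, the oncostatin M gene, had 1 exon read over all libraries, Il31 had 0, Il27 had 2, Ctf2 had 4, Ebi3 had 20 and Il31ra had 102.

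The downstream chain was read in both gates without a called difference. Of 12 genes of the JAK and STAT chain 0 passed and 1 had an unadjusted p under 0.05 (edgeR), beside 16.7% of all genes fitted. That gene was Jak2, whose kinase is bound to gp130, with means of 58.4 ± 11.5 CPM in MCi and of 96.4 ± 28.1 CPM in MRC (SD, n = 5). Its log2 fold change was 0.72 ± 0.21 (edgeR adjusted p = 0.171). The log2 fold change of the adaptor gene Shc1 was −0.34 ± 0.19 (edgeR adjusted p = 0.417). The list median was −0.08. Among 15 fitted genes for inhibitors of the pathway and for the sheddases that release soluble IL-6 receptor, 0 passed (list median −0.14). An unadjusted p under 0.05 was found for 2 of them (edgeR), beside 16.7% of all genes fitted. Socs1, a JAK inhibitor gene, ranged over 15.01 to 25.6 CPM in MCi and over 7.04 to 14.9 CPM in MRC, without overlap. Such an arrangement held for 3.79% of all genes fitted, and MCi4 (15.01 CPM) lay just above MRC2 (14.93 CPM). The Socs1 log2 fold change was −0.67 ± 0.26 (edgeR adjusted p = 0.251). Adam10, a sheddase gene, averaged 121 ± 18.4 and 86.1 ± 21.5 CPM, and Pias1, an inhibitor gene, 63.0 and 48.6 CPM (edgeR adjusted p = 0.273 and 0.380).

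Of 16 fitted genes known as STAT3 targets, 0 passed and 2 had an unadjusted p under 0.05 (edgeR), beside 16.7% of all genes fitted. The list median was −0.21. Il4ra, the interleukin-4 receptor alpha gene, ranged over 232 to 360 CPM in MCi and over 79.8 to 179 CPM in MRC. These ranges did not overlap, as for 3.79% of all genes fitted. The Il4ra log2 fold change was −1.06 ± 0.24 (edgeR adjusted p = 0.0974). Saa3, an acute phase gene, ranged over 21.4 to 124 CPM in MCi and over 12.8 to 26.4 CPM in MRC, and its log2 fold change was −1.90 ± 0.48 (edgeR adjusted p = 0.128). Pim1, a kinase gene, averaged 4.84 ± 1.78 and 7.99 ± 2.39 CPM (SD, n = 5; edgeR adjusted p = 0.351).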

How the data were processed

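RNA of 10 sorted cell samples was made into cDNA with a SMART-Seq v4 kit, per the labels' protocols, a kit that does not mark strand. Each deposited table gives the authors' counts of total and unique exon reads, gene reads and intron reads, with RPKM per the file headers. The deposited RPKM could be recomputed from the exon reads, the exon length and the library total of gene reads. GRCm38 is named in the submitters' processing notes, and the aligner is not given in the sources used here. Total exon reads (counts) were fitted with edgeR 4.0.16 (R 4.3.3): filterByExpr (minimum count 10, minimum total 15), TMM factors, quasi-likelihood test with robust estimation, Benjamini-Hochberg adjustment, threshold 0.05. CPM are relative to totals scaled by TMM factors. The SE was taken from the log2 fold change and the F statistic (its square root). Il11 and Clcf1, below the filter, were compared by exact permutation on log2(CPM + 1) of unscaled totals. Alternatives used DESeq2 1.42.0, limma 3.58.1 on log2 RPKM, other reads, filters and factors, and fewer libraries. The procedure was tested on counts simulated with a shared dispersion and no library sets or epithelium-rich libraries, so that test does not cover these features. Copies were sought with BLAST 2.17.0 in GENCODE M21 transcripts (97% identity over 100 bases). Promoters are from RefSeq. Itgam of the myeloid markers was not analysed here. The genes, lists and alternatives were chosen with earlier results of these data known. The rule for named genes took all 10 family genes, up to 3 genes of each pathway list with the smallest p, every further family gene with reads, and the 2 nearest profiles of each fitted gene. Some genes that this rule names are not reported here. The interaction test and the sum over Il11ra1 copies were chosen after seeing the data. The 95% intervals are from the edgeR fit and carry the spread between libraries. The floor of 3 reads covers counting error only, since reads carried no molecular identifiers.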

Additional observations from a re-analysis of the deposited data

Results flagged for a closer look

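Il6 intron reads were found in MRC5, the library without an Il6 exon read: it held 7 of them, a count that was not tested. Il31ra, the interleukin-31 receptor gene next to Il6st on chromosome 13, had 24450 intron reads over the 10 libraries beside 102 exon reads, so that 99.6% of its gene reads were intronic. These intron reads, counts not scaled for depth, numbered 972 to 2394 in the MCi libraries and 1423, 1730, 2188, 8333 and 3268 in MRC 1 to 5. MRC4, with the most, also had the highest share of mitochondrial exon reads, 6.66%, followed by MRC5 at 4.28%, against 0.706% to 1.58% elsewhere. Over all genes, introns held 10.8% of the gene reads in MRC4 and 4.75% to 6.99% in the other libraries. The source of the Il31ra intron reads was not tested, and they entered no comparison.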

How the results depend on the processing

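Against 53 genes called of all those fitted, the count was 844 with DESeq2 (64.7% of them higher in MRC, against 17%), 206 with library set as covariate, 128 without MRC4 and MRC5 (36.7%), 95 in replicates 1 to 3 alone, 3460 in replicates 4 and 5 alone, 244 on log2(RPKM + 1), 159 on log2(RPKM + 0.1), 149 on RPKM without a filter and 12 at a threshold of 0.01. Leaving out 1 library at a time gave 19 to 49 genes and 0 family genes. Family genes called were 0 except for 1 with DESeq2 and 1 on log2(RPKM + 1), Il6ra each time, and 3 in replicates 4 and 5 alone (Il6ra, Lifr and Osmr). Of all genes fitted, 6.96%, 2.16% and 26.2% passed in these settings, in that order. The log2 fold change of Il6ra stayed below 0 in each of its alternatives, from −1.82 to −0.58, as did those of Osmr, Il11ra1 and Socs3. That of Il6st turned to 0.11 without MRC4 and MRC5 and to 0.066 in replicates 1 to 3, where that of Lifr turned to 0.11. Il6 turned to −0.31 on log2(RPKM + 0.1) and ran from −0.21 (without MRC1) to 0.71 (without MCi2) with 1 library left out, being below 0 also without MCi4 (−0.14), MCi5 (−0.12) or MRC3 (−0.05). Clcf1 turned to 0.10 in replicates 4 and 5, and ran from −0.58 to −0.04 with 1 library left out. Il11 ran from −0.76 to −0.41 with 1 library left out. Its unadjusted p was under 0.05 only when MRC3 was left out (two-sided exact permutation p = 0.0317), the lowest p of its 16 alternatives. Il11 was at −1.68 on log2(CPM + 0.1) and at −0.26 without MRC4 and MRC5. With 1 library left out, Lif ran from 0.29 to 0.86, Il6st from −0.42 to −0.06 (without MRC5), Lifr from −0.37 to −0.16 (without MCi4 or MCi5), Osmr from −0.56 to −0.24 (without MRC5) and Socs3 from −0.81 (without MRC1) to −0.21 (without MCi1), none of which passed. On log2(RPKM + 1) and log2(RPKM + 0.1) the median of all genes lay at −0.21 and −0.26. The replicate block called 49 genes (30.6% higher in MRC) and 0 family genes, Il6ra being at −1.04 (edgeR adjusted p = 0.219). Deviations of same-numbered libraries correlated at 0.56, −0.25, 0.06, 0.35 and 0.485 for replicates 1 to 5, and 2 of 5 MCi libraries correlated best with their own number, so the numbers were not taken as pairs. At this depth Il11 and Clcf1 were near the floor, and differences in them were not detectable.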
